A study of Mus musculus with 12 samples.

Results

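The chemokine system of the mouse was followed through 12 RNA libraries of cells taken from the meninges, the membranes around the brain. Its genes were chosen by symbol, as every Ccl, Ccr, Cxcl or Cxcr gene with a number, together with Cx3cl1, Cx3cr1, Xcl1, Xcr1 and Ackr1 to Ackr4. This gave 62 of the 23238 symbols in the files, made up of 39 ligands, 19 receptors and 4 atypical receptors. The design text names the cells as meningeal lymphatic endothelial cells, the lining of the lymph vessels, obtained by magnetic sorting from 3 to 4 animals per strain and sequenced in quadruplicate. The 12 titles form 3 groups of 4, AD_TG, AD_B6 and SJL_B6. All groups share the label C57BL/6, the tissue label and an age of 20 weeks, and the labels state no further allele or agent and no meaning of these abbreviations. Nothing says that the 4 libraries of a group were separate animals, so p-values measure only the spread between these libraries, which may be technical.

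Chemokines are small secreted proteins that guide migrating leukocytes, and each acts through receptors that couple to G proteins on the target cell. The atypical receptors bind chemokines without that signalling and remove or transport them, which shapes the gradients that cells follow. Lymphatic endothelium is known for making CCL21, which draws dendritic cells and T cells bearing CCR7 into lymph vessels, while macrophages and monocytes are the main bearers of CX3CR1 and CCR2.

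Values are the deposited log2 levels unless another unit is given, and a gene counted as having reads where 2 to the power of its level, less 1, was at least 0.3 (the linear value). The estimated depth was 4022407 to 9307807 reads per library, and 8748 to 12217 symbols had reads. The lowest number, 8748, came from AD_B6 replicate 3, at an estimated 8911496 reads. SJL_B6 replicate 3, at 4022407 reads, had 11489 symbols, and AD_TG replicate 1, at 4157800 reads, had 12018. Prox1, the transcription factor that defines lymphatic endothelium, had reads in 2 of the 12 libraries, Lyve1, a hyaluronan receptor of lymphatic vessels and some macrophages, in 11, and Pecam1, a junction gene of all endothelium, in 8. The macrophage list of 15 genes took 0.317 to 0.503% of an AD_TG library, 0.218 to 0.55% of an AD_B6 library and 0.387 to 0.659% of an SJL_B6 library. The lymphatic endothelial list of 14 genes took 0.0535 to 0.0602% in AD_TG, 0.0423 to 0.0686% in AD_B6 and 0.0593 to 0.0805% in SJL_B6. Of the 12 genes of the T and NK cell list, Cd3e, Cd3g, Gzmb and Ncr1 had no reads in any library, 1 to 4 had reads in each library, and only Cd4, which macrophages can also carry, passed the filter for testing; the list took 2.2e-05 to 0.0107% of a library. The choroid plexus list of 7 genes took 1.64 to 6.47% of an AD_TG library, 0.324 to 8.64% of an AD_B6 library and 0.236 to 5.29% of an SJL_B6 library. The values below are therefore those of a mixed preparation, in which fewer cells of a type and less RNA per cell cannot be told apart.

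Of the 62 genes, 53 had reads somewhere (85.5%, against 74.3% of all symbols), but only 9 had reads in all 12 libraries (14.5%, against 21.3%). These 9 were the ligands Ccl6, Ccl8, Ccl9, Ccl27a, Ccl27b and Cx3cl1 and the receptors Ccr2, Cx3cr1 and Cxcr2. A further 12 had reads in 9 to 11 libraries, 14 in 4 to 8 and 18 in 1 to 3. The 9 genes with no reads were the ligands Ccl1, Ccl26, Cxcl15 and Cxcl17, the receptors Cxcr1, Ccr6, Ccr8 and Ccr1l1, and Ackr2, a scavenger of inflammatory CC chemokines known from lymphatic endothelium of other organs. At these depths, no reads means no detection and not absence.

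Most chemokine genes share a few chromosomes, whose counts can be set beside the shares of all symbols just given. In GENCODE M21, chromosome 9 holds 14 of the genes, all receptors or atypical receptors, of which 11 had reads in at least 1 library and 2, Cx3cr1 and Ccr2, in all 12. Chromosome 11 also holds 14, of which 12 are ligands; 13 had reads and 3, Ccl6, Ccl8 and Ccl9, had them in all 12. The 11 ligands on chromosome 5, most of them CXC chemokines, had reads in at least 1 library for 9 and in all 12 for none.

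**Figure D1:**
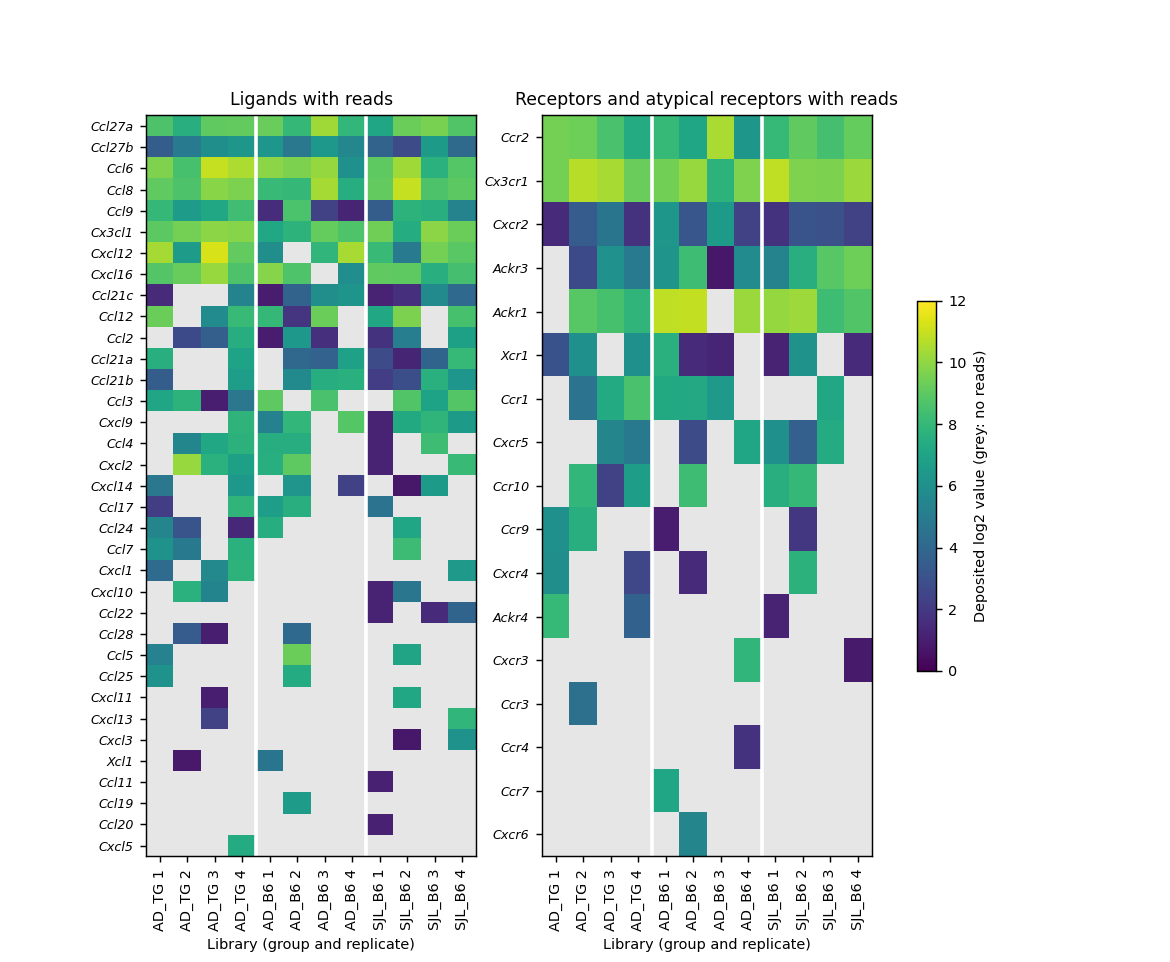
Deposited log2 level of ligands (left) and receptors (right) with reads in at least 1 library; columns are libraries, with AD_TG left of AD_B6 and SJL_B6, and grey marks no reads. The upper rows are filled across the 12 libraries, whereas the genes lower down appear in a few libraries each.

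Detection of chemokine genes was patchy, much as it was over all symbols. Reads were present in 336 of 744 combinations of gene and library (45.2%, against 47.7% over all symbols). Where a chemokine gene had reads, its level was log2 6 or more in 65.2% of cases, against 77.4% over all symbols. Levels below log2 6 were thus more frequent among chemokine genes with reads than over all symbols. Within AD_B6, genes such as Ccl3 and Ackr1 had libraries without reads beside libraries above log2 6. The median standard deviation (SD) within groups was 3.01 for the 31 chemokine genes that passed the filter for testing and 2.64 for all 11955 genes that passed it.

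The number of chemokine genes with reads was 28, 28, 27 and 35 in AD_TG, 28, 32, 20 and 22 in AD_B6 and 31, 33, 24 and 28 in SJL_B6. The lowest values, 20 and 22, came from AD_B6 replicates 3 and 4, and the groups overlapped. All symbols with reads averaged 11536 ± 409 in AD_TG, 10289 ± 1125 in AD_B6 and 11430 ± 584 in SJL_B6 (SD, n = 4 each), so AD_B6 had the lowest mean for chemokine genes and for all symbols alike. Without AD_B6 replicate 3, an omission chosen after seeing the data, the AD_B6 mean of chemokine genes was 27.33 in place of 25.50.

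**Figure D2:**
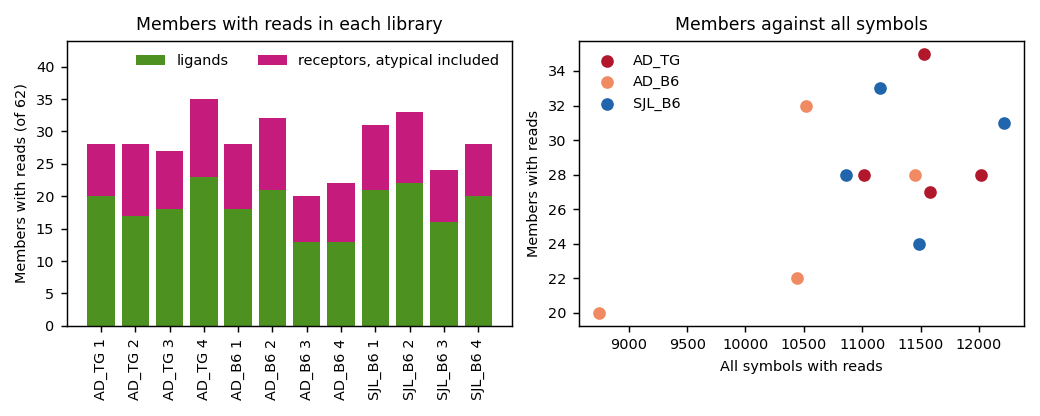
Left, number of the 62 chemokine genes with reads in each library, divided into ligands and receptors. Right, that number against all symbols with reads in the same library, 1 point per library; AD_B6 replicate 3 lies lowest on both axes, with 20 chemokine genes and 8748 symbols.

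Ligands took 0.0939 ± 0.0345% of the linear total in AD_TG, 0.0698 ± 0.02% in AD_B6 and 0.0709 ± 0.0285% in SJL_B6 (SD, n = 4 each). Receptors, atypical ones included, took 0.0371 ± 0.011% in AD_TG, 0.0476 ± 0.0119% in AD_B6 and 0.0451 ± 0.00639% in SJL_B6. These shares overlapped between all groups, with ligands at 0.0574 to 0.136% in AD_TG, 0.0452 to 0.0941% in AD_B6 and 0.0369 to 0.106% in SJL_B6.

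Whether ligand and receptor occurred together was counted over 16 receptor systems. Ligand and receptor both had reads in all 12 libraries for 2 of them. The first was fractalkine, the membrane-tethered ligand of CX3CR1. The second was the CCR2 system of monocyte recruitment. A ligand of CCR1, a receptor of monocytes and neutrophils, had reads in all 12 libraries and Ccr1 itself in 7. The CXCR2 system of neutrophils had ligand and receptor together in 9 libraries. Cxcl12 had reads in 11 libraries, together with its signalling receptor Cxcr4 in 3 and with the scavenger Ackr3 in 10. The CXCL12 system, in which either receptor counted, thus reached 11. Others were one-sided. A CCR7 ligand had reads in 10 libraries and Ccr7 in 1, while the scavenger Ackr4, not counted in that system, had reads beside such a ligand in 3; a CXCR3 ligand in 10 and Cxcr3, a receptor of activated T cells, in 2; and Cxcl16 in 11 and Cxcr6, its receptor on T and NKT cells, in 1. The reverse held for Xcr1, a receptor of cross-presenting dendritic cells, which had reads in 9 libraries against 2 for its ligand Xcl1, and for Cxcr5, a B cell receptor, in 7 against 2 for Cxcl13. Some Xcr1 libraries rest on very few reads. Its linear value was 1.2 to 1.68 in AD_B6 replicates 2 and 3 and SJL_B6 replicates 1 and 4, where 1 read was worth an estimated 0.698 to 1.186. Exons of Cxcr5 overlap those of Bcl9l on the other strand, and Bcl9l had levels of 8.20 to 10.37; the sources used here do not say whether counting used strand, so reads of these genes cannot be told apart.

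**Figure D3:**
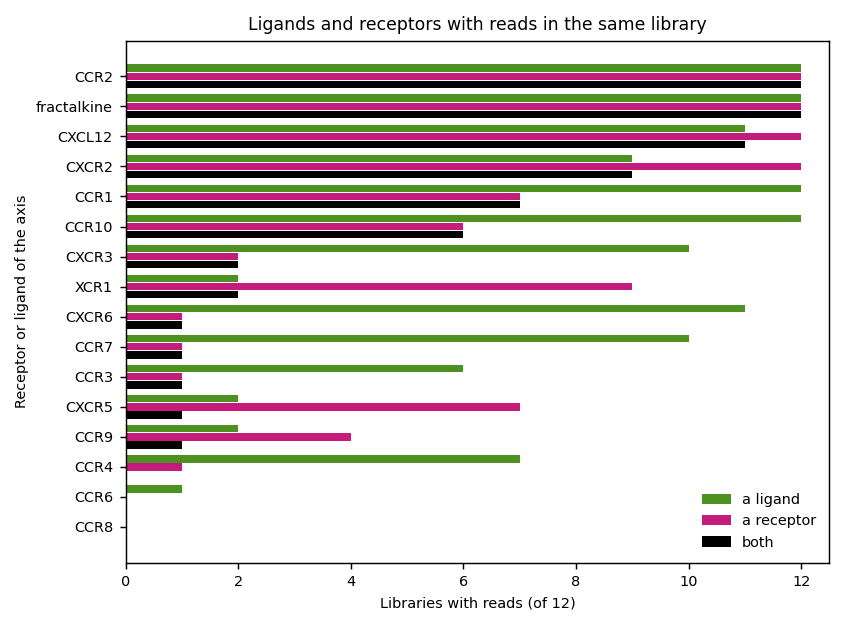
Number of the 12 libraries with reads of at least 1 ligand, at least 1 receptor, and both, for each receptor system. Only the CXCL12 system counts an atypical receptor, and 1 read suffices for a library to count. Fractalkine and CCR2 reach 12 on all bars, while CCR7, CXCR3 and CXCR6 have long ligand bars and receptor bars of 1 or 2.

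The fractalkine system had the most even values. Cx3cr1, the fractalkine receptor of macrophages and microglia, stood at 9.50, 10.73, 10.42 and 9.28 in AD_TG, at 9.46, 10.13, 7.75 and 9.67 in the AD_B6 libraries and at 10.86, 9.69, 9.64 and 10.21 in SJL_B6. Its within-group SD of 0.80 was the lowest of the 31 tested chemokine genes, and only AD_B6 replicate 3 fell below 9. Cx3cl1, which encodes fractalkine, stood at 8.97, 9.51, 9.91 and 9.84 in AD_TG, at 7.20, 7.75, 9.16 and 8.70 in the AD_B6 libraries and at 9.40, 7.43, 9.92 and 9.30 in SJL_B6. The AD_TG libraries 2 to 4 lay above every AD_B6 library and AD_TG replicate 1 lay within the AD_B6 range, so the groups overlapped.

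The CCR2 system of monocytes also had ligand and receptor in every library. Ccr2, the receptor that brings monocytes out of bone marrow and into tissue, stood at 9.48, 9.37, 8.54 and 7.39 in AD_TG, at 8.06, 7.04, 10.49 and 6.34 in the AD_B6 libraries and at 8.02, 9.08, 8.45 and 9.16 in SJL_B6. Both the highest and the lowest library were AD_B6. Ccl8, which encodes a CC chemokine described in the mouse as a ligand of CCR8 also, stood at 9.05, 8.67, 9.86 and 9.63 in AD_TG, at 8.09, 7.97, 10.39 and 7.48 in the AD_B6 libraries and at 9.11, 10.95, 8.64 and 8.98 in SJL_B6. Apart from replicate 3, the AD_B6 libraries lay below every library of the other groups. Without Ccl8, the CCR2 system was less complete, since Ccl2, Ccl7 and Ccl12 together had reads in 10 libraries.

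Ccl2, the main ligand of CCR2, had no reads in AD_TG replicate 1 and stood at 2.68, 3.62 and 7.49 in replicates 2 to 4. Its AD_B6 values were 0.95, 6.42 and 1.62 in replicates 1 to 3 with no reads in replicate 4, and its SJL_B6 values 1.76, 5.13 and 6.82 in replicates 1, 2 and 4 with no reads in replicate 3. High and low libraries occurred in every group. Ccl12, a mouse relative of CCL2, had no reads in AD_TG replicate 2 and stood at 9.31, 5.79 and 8.11 in the others, at 8.0, 1.81 and 9.31 in AD_B6 replicates 1 to 3 with no reads in replicate 4, and at 7.16, 9.63 and 8.49 in SJL_B6 replicates 1, 2 and 4 with no reads in replicate 3. It, too, overlapped between all groups. Ccl7, another monocyte attractant, stood at 6.15, 4.85 and 7.68 in AD_TG replicates 1, 2 and 4, had no reads in AD_TG replicate 3 or in any AD_B6 library, and stood at 8.23 in SJL_B6 replicate 2 alone. The highest library of Ccl7 was thus in SJL_B6, and AD_TG and AD_B6 met at no reads.

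Among ligands of CCR1, Ccl6, a CC chemokine of mouse macrophages, stood at 9.69, 8.50, 10.96 and 10.52 in AD_TG, at 9.92, 9.65, 10.08 and 6.03 in the AD_B6 libraries and at 9.03, 10.31, 7.67 and 8.84 in SJL_B6. AD_B6 replicate 4 lay below every other library, and the remaining values of the groups overlapped. Ccl9, its neighbour on chromosome 11 and also a ligand of CCR1, stood at 7.99, 6.64, 7.15 and 8.32 in AD_TG, at 1.52, 8.61, 2.37 and 1.22 in the AD_B6 libraries and at 3.55, 7.75, 7.51 and 5.35 in SJL_B6. AD_B6 held the 3 lowest libraries of Ccl9 and also its highest. Ccl3, an attractant of macrophages and T cells, stood at 7.04, 7.78, 1.02 and 4.76 in AD_TG, at 9.01 and 8.57 in AD_B6 replicates 1 and 3 with no reads in the others, and at 8.72, 6.94 and 8.78 in SJL_B6 replicates 2 to 4 with no reads in replicate 1. Its groups overlapped throughout.

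Ccr1 stood at 4.55, 7.34 and 8.54 in AD_TG replicates 2 to 4, at 7.27, 7.26 and 6.49 in AD_B6 replicates 1 to 3 and at 7.16 in SJL_B6 replicate 3. It had no reads in the other 5 libraries, of which 3 were SJL_B6.

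**Figure D4:**
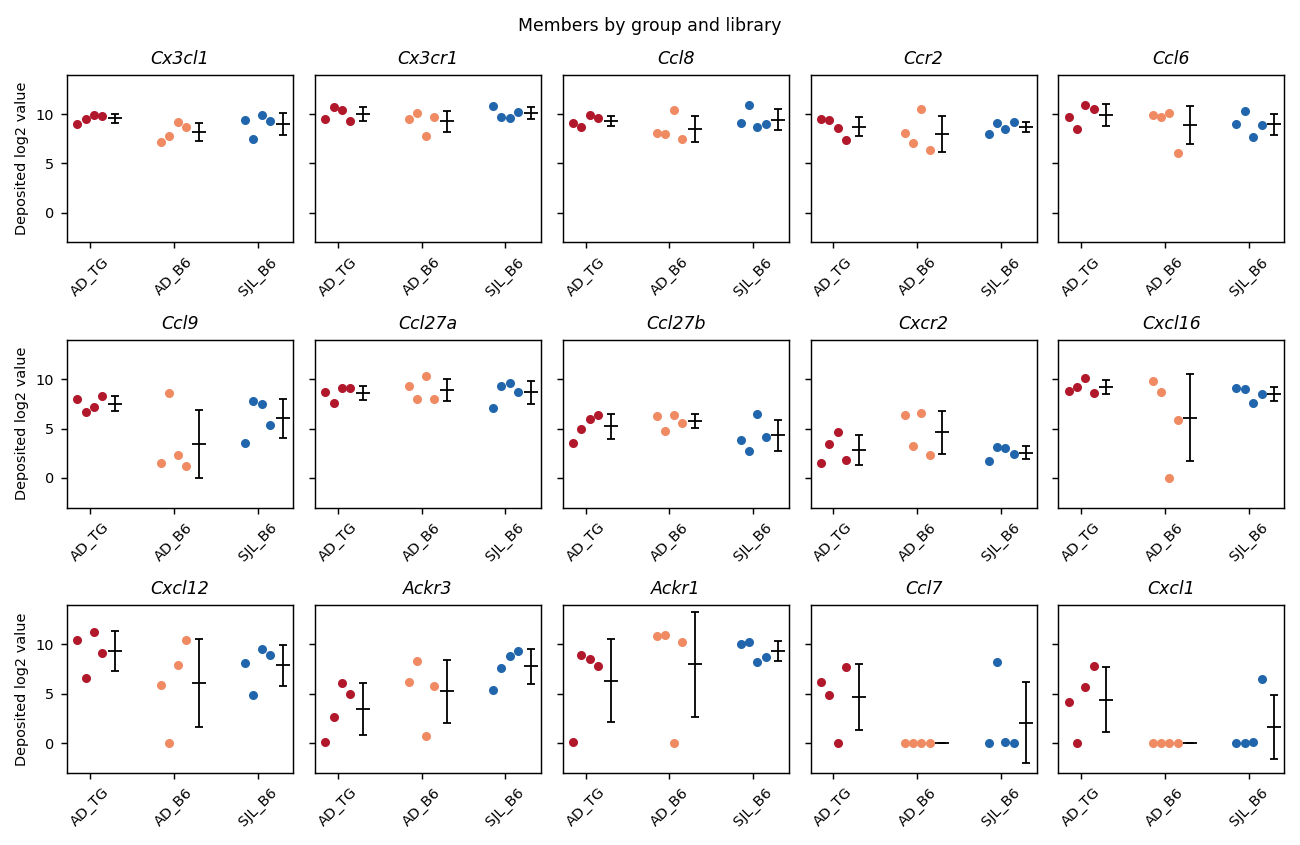
Deposited log2 level of 15 chemokine genes in each library (points) with the group mean and SD beside them (horizontal mark and bar), AD_TG left of AD_B6 and SJL_B6. Cx3cr1 and Cx3cl1 have the lowest within-group SDs, 0.80 and 0.85, whereas Cxcl16 and Ackr1 have 1 AD_B6 library at 0.00 and Ccl9 has 3 low AD_B6 libraries below 1 at 8.61.

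The lymphatic system of CCL21 and its receptors was read at low and patchy levels. CCL21 in the mouse is encoded by several near-identical copies on chromosome 4. In the GENCODE M21 annotation (GRCm38), the coding sequences of Ccl21a and Ccl21b have 402 bases and differ at 2 of them, T84A and C194T, counted from 1 at the first coding base with the base of Ccl21a first. Both windows around these bases are shown because they are all that separates the coding copies, in the coding direction with the differing base in capitals; the first pair spans coding bases 64 to 104 and the second 174 to 214.
Ccl21a: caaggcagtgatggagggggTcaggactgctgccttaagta
Ccl21b: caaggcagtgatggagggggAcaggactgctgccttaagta
Ccl21a: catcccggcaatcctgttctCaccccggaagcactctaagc
Ccl21b: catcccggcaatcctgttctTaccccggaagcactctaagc

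A library read near transcript ends separates these copies only as far as their ends differ. The last 100 bases of the annotated Ccl21a transcript differ from those of the copies Gm21541 and Gm13304 at 2 bases. They differ from those of Ccl21b at 83 bases, where the annotated transcripts have 870 bases for Ccl21a and 402, the coding sequence alone, for Ccl21b. The annotated end of Ccl21b is thus the end of its coding sequence, and this count does not show how far the real ends differ. In the files, Ccl21a and the symbol Gm1987 had the same value, to within 0.0005, in 9 libraries, 6 of them with reads. The values of single copies are uncertain for that reason.

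Ccl21a stood at 7.58 and 6.96 in AD_TG replicates 1 and 4, at 4.00, 3.76 and 6.89 in AD_B6 replicates 2 to 4 and at 2.80, 1.26, 3.89 and 8.06 in SJL_B6, with no reads in the other 3 libraries. Ccl21b stood at 3.53 and 6.74 in AD_TG replicates 1 and 4, at 5.70, 7.48 and 7.61 in AD_B6 replicates 2 to 4 and at 2.19, 2.88, 7.63 and 6.32 in SJL_B6. Ccl21c stood at 1.49 and 5.36 in AD_TG replicates 1 and 4, at 0.95, 3.84, 5.95 and 6.21 in the AD_B6 libraries and at 1.14, 1.63, 5.76 and 4.09 in SJL_B6. Ccl21a and Ccl21b had reads in the same 9 libraries, and Ccl21c in these and in AD_B6 replicate 1. Their summed linear values, again as log2, were 7.67, 0.00, 0.01 and 8.08 in AD_TG, 0.95, 6.33, 7.97 and 8.60 in AD_B6 and 3.55, 3.44, 8.05 and 8.50 in SJL_B6. No Ccl21 copy had reads in AD_TG replicates 2 and 3, and each group held a library above 8.

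Ccl19, the other CCR7 ligand, had reads in AD_B6 replicate 2 alone, at 6.61. Ccr7, the receptor of migrating dendritic cells and T cells, had reads in AD_B6 replicate 1 alone, at 7.07. Ackr4, which scavenges CCL19 and CCL21 on lymphatic endothelium, stood at 8.03 and 3.73 in AD_TG replicates 1 and 4, had no reads in AD_B6, and stood at 1.14 in SJL_B6 replicate 1. The AD_TG libraries with Ackr4 reads were those that held Ccl21 copies. Every AD_B6 and SJL_B6 library also held reads of a Ccl21 copy, and of these only SJL_B6 replicate 1 had Ackr4 reads. Exons of Ackr4 overlap those of Acad11 on the other strand, and Acad11 stood at 5.74 and 8.14 in the same AD_TG libraries.

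CXCL12 is a constitutive chemokine of stroma and endothelium, which retains leukocytes and progenitors through CXCR4. Cxcl12 stood at 10.40, 6.58, 11.26 and 9.13 in AD_TG, at 5.93, 7.91 and 10.43 in AD_B6 replicates 1, 3 and 4 with no reads in replicate 2, and at 8.14, 4.91, 9.49 and 8.93 in SJL_B6. It spanned several log2 units in every group, and the groups overlapped. Cxcr4 had reads in 4 libraries only, at 5.96 and 2.56 in AD_TG replicates 1 and 4, 1.41 in AD_B6 replicate 2 and 7.73 in SJL_B6 replicate 2.

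Ackr3, the atypical receptor that scavenges CXCL12, had no reads in AD_TG replicate 1 and stood at 2.68, 6.06 and 5.0 in the others, at 6.20, 8.28, 0.75 and 5.77 in the AD_B6 libraries and at 5.37, 7.57, 8.86 and 9.34 in SJL_B6. Of the AD_TG libraries, only replicate 3 reached the SJL_B6 range, where it lay above the lowest SJL_B6 library. Ackr1, the atypical receptor of venules and erythroid cells that binds both CC and CXC chemokines, had no reads in AD_TG replicate 1 and stood at 8.89, 8.51 and 7.83 in the others. Its levels were 10.86, 10.91 and 10.20 in AD_B6 replicates 1, 2 and 4 with no reads in replicate 3, and at 10.08, 10.26, 8.25 and 8.74 in SJL_B6. Where it had reads, Ackr1 was lower in each AD_TG library than in each AD_B6 library, and AD_TG and SJL_B6 overlapped; with the libraries without reads, 1 in each, AD_TG and AD_B6 overlapped too. All 7 tested genes of the erythroid list were lower in AD_TG than in AD_B6 (median −0.85), none past the threshold, at 0.0966 to 0.51% of an AD_TG library and 0.102 to 1.19% of an AD_B6 library; its part in the Ackr1 values was not tested. Exons of Ackr1 overlap those of Cadm3 on the same strand, and Cadm3 had levels of 6.91 to 10.47.

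Cxcl16, a membrane-bound chemokine that also acts as a scavenger receptor of macrophages, stood at 8.77, 9.23, 10.15 and 8.64 in AD_TG, at 9.82, 8.68 and 5.90 in AD_B6 replicates 1, 2 and 4 with no reads in replicate 3, and at 9.07, 9.02, 7.54 and 8.48 in SJL_B6. AD_B6 held both libraries below 7. Exons of Cxcl16 overlap those of Zmynd15 on the other strand, which stood at 6.97 in the AD_B6 library without Cxcl16 reads. Xcr1 stood at 3.01, 6.01 and 6.00 in AD_TG replicates 1, 2 and 4, at 7.61, 1.41 and 1.25 in AD_B6 replicates 1 to 3 and at 1.14, 6.12 and 1.42 in SJL_B6 replicates 1, 2 and 4. Its groups overlapped, with no reads in 1 library of each.

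Ccl27a, a chemokine of barrier epithelia that acts through CCR10, stood at 8.67, 7.59, 9.08 and 9.12 in AD_TG, at 9.28, 7.98, 10.30 and 7.96 in the AD_B6 libraries and at 7.05, 9.29, 9.59 and 8.74 in SJL_B6. All groups spanned much the same range. Its exons overlap those of Il11ra1, a cytokine receptor gene, on the other strand, and Il11ra1 had levels of 9.74 to 11.36 in all libraries. Ccl27b, its copy, stood at 3.53, 4.97, 5.97 and 6.37 in AD_TG, at 6.30, 4.79, 6.38 and 5.55 in the AD_B6 libraries and at 3.81, 2.73, 6.52 and 4.17 in SJL_B6, again with overlapping groups.

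The neutrophil system had reads of a receptor throughout, in some libraries only a few, and reads of ligands in part of the libraries. Cxcr2, the receptor that recruits neutrophils, stood at 1.49, 3.47, 4.68 and 1.78 in AD_TG, at 6.37, 3.22, 6.56 and 2.31 in the AD_B6 libraries and at 1.76, 3.13, 2.99 and 2.38 in SJL_B6. AD_B6 replicates 1 and 3 stood above every other library. The linear value of Cxcr2 was 1.82 in AD_TG replicate 1, where the worth of 1 read was estimated at 1.752. It was 2.39 in SJL_B6 replicate 1, where that worth was 1.186. The neutrophil list took 0.0122 to 0.314% of an AD_TG library, 0.0245 to 0.32% of an AD_B6 library and 0.00922 to 0.102% of an SJL_B6 library; its part in the Cxcr2 values was not tested. Cxcl1, a ligand of CXCR2, stood at 4.21, 5.66 and 7.77 in AD_TG replicates 1, 3 and 4, had no reads in AD_TG replicate 2 or in any AD_B6 library, and stood at 6.45 in SJL_B6 replicate 4 alone. Cxcl2, a further ligand, had reads in 3 AD_TG, 2 AD_B6 and 2 SJL_B6 libraries, at 1.14 to 10.13.

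Promoters were searched because several of the patchy ligands are known as rapidly induced genes. RefSeq promoter windows (GRCm38.p6, 250 bases before to 50 after the start site) were matched for 46 of the 62 genes, those without a match including Cxcl16, Ccl2, Ccl7, Ccl11, Ccl5, Ccl4, Ccr7, Ccr10, Ccl21c, Cxcl5, Cxcl11, Ccl26, Ccl24, Cxcl17 and Cxcr5. GGG, then 3 bases of any kind, then TTCC, letters of the NF-kappa B site, read on both strands, occurred in 9 windows (19.6%), against 6.31% of 27025 gene promoters. The 9 were those of Ccl1, Ccl9, Ccl20, Ccr3, Ccr6, Cxcl1, Cxcl2, Cxcl3 and Cxcl10, and 2 of these genes had reads in 6 or more libraries. GAAA, then 2 bases of any kind, then GAAA, letters of interferon response elements, occurred in 3 windows (6.52%, against 3.99%), those of Ccl19, Cxcl10 and Cxcl14. Matches of each motif can overlap on the opposite strand. The neighbouring CXCR2 ligands Cxcl1, Cxcl2 and Cxcl3 share the same run of letters close to their starts. Their windows are given for that reason, then those of Cxcl10, which holds both motifs, each in the direction of the gene with the match in capitals. The positions are chr5:90891154-90891203 (plus strand) for Cxcl1, chr5:90903782-90903831 (plus) for Cxcl2, chr5:90786008-90786057 (plus) for Cxcl3, and chr5:92349019-92349068 and chr5:92349073-92349122 (minus) for Cxcl10.
Cxcl1: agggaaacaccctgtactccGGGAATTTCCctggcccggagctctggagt
Cxcl2: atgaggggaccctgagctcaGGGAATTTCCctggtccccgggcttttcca
Cxcl3: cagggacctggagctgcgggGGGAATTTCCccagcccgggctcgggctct
Cxcl10, NF-kappa B letters: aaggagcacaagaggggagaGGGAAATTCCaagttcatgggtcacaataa
Cxcl10, interferon letters: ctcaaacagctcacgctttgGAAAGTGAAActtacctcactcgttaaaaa

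Of these genes, Cxcl3 had reads in 2 libraries, both SJL_B6, at 0.75 and 6.14. Cxcl10, an interferon-induced ligand of CXCR3, had reads in AD_TG replicates 2 and 3, at 7.65 and 5.43, in no AD_B6 library, and in SJL_B6 replicates 1 and 2, at 1.14 and 4.73. A match of letters is a description and shows no binding.

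Differences between groups were tested with limma, with Benjamini-Hochberg adjustment over 11955 genes, those whose linear value reached 10 in 4 or more libraries. The 31 chemokine genes that passed this filter were 21 ligands, 8 receptors and 2 atypical receptors, and every pair of contrasts shares a group of libraries. The labels do not state what the groups were meant to show.

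For AD_TG against AD_B6, no gene passed an adjusted p of 0.05 in limma (0 of 11955, 0%), and the lowest adjusted p was 0.871. At an unadjusted p below 0.05, 519 genes were higher (4.34%) and 120 lower (1%). Among chemokine genes, 3 were in the first set and 0 in the second. Cxcl1 differed by 4.40 (standard error, SE, 1.94; adjusted p = 0.871, limma), Ccl7 by 4.66 (SE 2.10; adjusted p = 0.871, limma) and Cxcl16 by 3.10 (SE 1.42; adjusted p = 0.871, limma). None passed the threshold.

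These values rest on libraries without reads. Cxcl1 and Ccl7 had no reads in any AD_B6 library, so their differences depend on the pseudocount of 1 and give no fold; with a pseudocount of 10 they were 2.13 and 2.33. The Cxcl16 difference was 1.06 without AD_B6 replicate 3, the library without Cxcl16 reads. Of the macrophage list, 14 of 15 genes were higher in AD_TG than in AD_B6 (median 0.60), none past the threshold, where 62.8% of all genes were higher. Its summed levels given above overlapped. Among lists with more than 1 tested gene, medians were larger for lymphatic endothelial (1.24), choroid plexus (1.11), dendritic cell (1.05), monocyte (1.01) and mural cell (0.98). They were negative for erythroid (−0.85), neutrophil (−0.42), B cell (−0.13) and meningeal fibroblast (−0.10). The part of any of these cells in the chemokine values was not tested.

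The next members by p in that contrast were Cxcl12 at 3.28 (95% interval −0.06 to 6.61), Ccl9 at 4.09 (−0.20 to 8.38) and Cx3cl1 at 1.35 (−0.16 to 2.87). The Cxcl12 difference was 1.25 without AD_B6 replicate 2, the library without its reads. In all, 20 of the 31 chemokine genes were higher in AD_TG and 11 lower, with a median difference of 0.75 against 0.41 over all genes tested, of which 62.8% were higher. Quantile normalization put 15 of the 31 higher, with a median of −0.26. Centring each library left 19 higher, with a median of 0.12, and moved the median of all genes to −0.22, so these medians and the split of signs depended on the scaling. No tested chemokine gene had AD_TG and AD_B6 libraries that did not overlap, against 1.95% of all genes with AD_TG above and 0.928% with AD_TG below.

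For AD_TG against SJL_B6, limma called no gene (0 of 11955, 0%; lowest adjusted p 0.999). At an unadjusted p below 0.05, 220 genes were higher (1.84%) and 137 lower (1.15%), with no chemokine gene among them. The smallest p belonged to Ackr3, with a difference of −4.33 (SE 2.19, adjusted p = 0.999, limma). It was followed by Ackr1 at −3.0 (SE 1.93, adjusted p = 0.999, limma) and Cxcl1 at 2.78 (SE 1.94, adjusted p = 0.999, limma). The tested atypical receptors thus had the smallest p on the lower side, short of the threshold. Of those not tested, Ackr4 averaged 2.94 in AD_TG and 0.30 in SJL_B6, and Ackr2 had no reads. The Ackr1 difference was −0.92 without AD_TG replicate 1, the library without its reads, whereas that of Ackr3 was −3.20 without the same library. Cxcl1 had no reads in 3 SJL_B6 libraries, and its difference was 1.65 without AD_TG replicate 4, 4.25 without AD_TG replicate 2, 4.38 without SJL_B6 replicate 4 and 1.31 with a pseudocount of 10. The 7 erythroid genes were lower in AD_TG than in SJL_B6 as well (median −0.98), none past the threshold, with the list at 0.244 to 0.419% of an SJL_B6 library.

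Signs in that contrast were 19 higher and 12 lower, with a median of 0.37 against 0.08 over all genes tested; quantile normalization put 15 of the 31 higher. All 7 genes of the choroid plexus list were higher in AD_TG than in SJL_B6 (median 1.05), none past the threshold, while the summed levels overlapped; its part in the chemokine values was not tested. Cx3cr1 differed by −0.12 with an interval of −1.35 to 1.12, and Ccr2 by 0.02 with an interval of −1.87 to 1.90. Groups that did not overlap were found for no tested chemokine gene, against 1.46% of all genes with AD_TG above and 1.07% with AD_TG below.

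For AD_B6 against SJL_B6, limma again called no gene (0 of 11955, 0%; lowest adjusted p 0.869). At an unadjusted p below 0.05, 163 genes were higher (1.36%) and 484 lower (4.05%), with no chemokine gene on either side. Cxcl16 differed by −2.43 (SE 1.42, adjusted p = 0.869, limma) and by −0.39 without AD_B6 replicate 3. Cx3cr1 differed by −0.84 (SE 0.60, adjusted p = 0.875, limma), and by −0.34 without that library. Of the macrophage list, 12 of 15 genes were lower in AD_B6 than in SJL_B6 (median −0.45), none past the threshold, where 40.2% of all genes were higher. Among lists with more than 1 tested gene, medians were lower still for pan-endothelial (−1.19), lymphatic endothelial (−1.09), mural cell (−1.01) and B cell (−0.77). They were positive for neutrophil (1.39), monocyte (0.23), choroid plexus (0.17) and dendritic cell (0.16). Medians nearer 0 than that of the macrophage list, but negative, belonged to meningeal fibroblast (−0.21, 10 of 12 genes lower) and erythroid (−0.13, 5 of 7 lower). The part of any of these lists in the chemokine values was not tested. Ccr1 differed by 3.47 (SE 2.60, adjusted p = 0.882, limma), with reads in 3 AD_B6 libraries and 1 SJL_B6 library; it was 5.26 without that SJL_B6 library, replicate 3, and 1.86 with a pseudocount of 10. Of the 31 genes, 11 were higher in AD_B6 and 20 lower, where 40.2% of all genes were higher. Their median was −0.70 against −0.31 over all genes tested, and quantile normalization put 15 of the 31 higher. No tested chemokine gene had groups apart, against 0.912% of all genes with AD_B6 above and 1.91% with AD_B6 below.

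**Figure D5:**
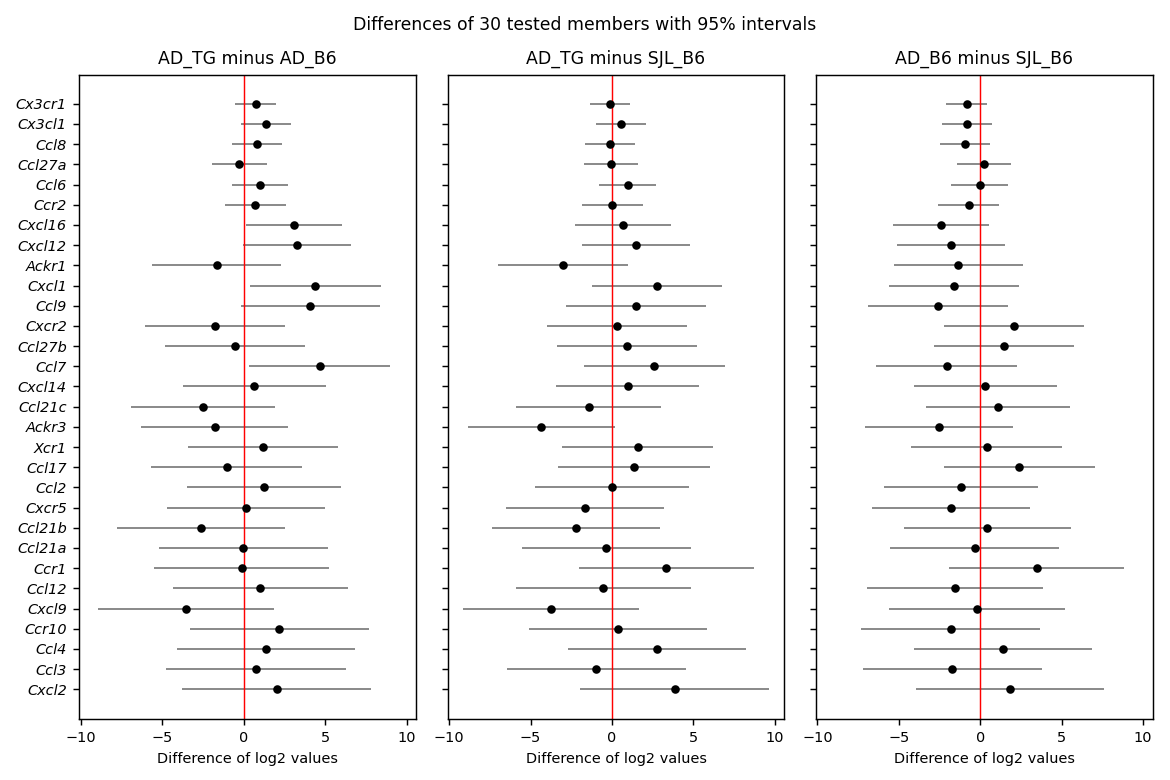
Difference of mean log2 level (points) with its 95% limma interval (lines) for 30 of the 31 tested chemokine genes in the 3 contrasts, ordered by the width of the interval. The intervals of Cx3cr1 are the narrowest, 1.24 to either side, and only those of Cxcl1, Ccl7 and Cxcl16 in AD_TG minus AD_B6 stay clear of 0 before adjustment.

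What these data could have resolved differed by gene. The 95% interval reached 1.24 log2 units to either side of the difference for Cx3cr1, 4.39 for the median chemokine gene and 5.79 for Cxcl2. Differences of several log2 units in most chemokine genes were thus not detectable at this spread, and a missing call does not show equal levels.

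The genes that carry the signal inward from chemokine receptors, such as G protein subunits, phosphoinositide 3-kinases and activators of Rac, were read more completely. Of 44 such partners, 41 passed the filter and 20 had reads in all 12 libraries. Gnai2, the inhibitory G protein subunit of leukocytes, averaged 12.98 ± 0.44 in AD_TG, 13.04 ± 0.56 in AD_B6 and 13.29 ± 0.27 in SJL_B6 (SD, n = 4 each). All 3 SDs were below the within-group SD of 0.80 of Cx3cr1.

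No partner passed the threshold in any contrast. For AD_TG against AD_B6, 25 were higher and 16 lower, where 62.8% of all genes were higher, and the smallest p belonged to Tiam1, Rac2 and Gng2. Rac2, a GTPase of leukocyte migration, ranged from 8.02 to 8.94 in AD_TG and from 1.86 to 8.27 in AD_B6, a difference of 3.58 (SE 1.29, adjusted p = 0.871, limma). Tiam1, an activator of Rac, ranged from 7.37 to 8.39 in AD_TG and from 0.00 to 0.87 in AD_B6, so these groups did not overlap, and differed by 7.74 (SE 2.36, adjusted p = 0.871, limma). With AD_B6 at or near no reads, that difference depends on the pseudocount and was 4.67 with a pseudocount of 10. Gng2, a G protein gamma subunit, ranged from 1.39 to 7.47 in AD_TG and from 8.53 to 9.41 in AD_B6, also apart, with a difference of −3.68 (SE 1.34, adjusted p = 0.871, limma), or −2.42 without AD_TG replicate 4. Over all genes, AD_TG lay wholly above AD_B6 for 1.95% and wholly below for 0.928%.

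For AD_TG against SJL_B6, 22 partners were higher and 19 lower, where 53.3% of all genes were higher, with the smallest p for Pik3cd, Ptk2b and Gnb2. Pik3cd, a leukocyte phosphoinositide 3-kinase, differed by −3.74 (SE 1.59, adjusted p = 0.999, limma) and Ptk2b, a tyrosine kinase, by 3.84 (SE 1.69, adjusted p = 0.999, limma). Gnb2, a G protein beta subunit, differed by 0.96 (SE 0.48, adjusted p = 0.999, limma). The difference of Pik3cd was −1.82 without AD_TG replicate 4, and that of Ptk2b 2.38 without SJL_B6 replicate 2. For AD_B6 against SJL_B6, 13 were higher and 28 lower, where 40.2% of all genes were higher. Rac2 differed by −4.36 (SE 1.29, adjusted p = 0.869, limma) and Jak2 by −6.24 (SE 2.31, adjusted p = 0.869, limma). Prex1, an activator of Rac, differed by −4.05 (SE 1.51, adjusted p = 0.869, limma), or −2.60 without AD_B6 replicate 3. Jak2 ranged from 0.00 to 2.73 in AD_B6, so its difference depends on the pseudocount and was −3.98 with a pseudocount of 10. AD_B6 lay wholly below SJL_B6 for Rac2 (highest 8.27, lowest 8.60), Jak2 (2.73, 6.35) and Prex1 (7.26, 7.90). It lay wholly above SJL_B6 for the partners Gng2 (AD_B6 lowest 8.53, SJL_B6 highest 8.41) and Pik3cg (7.81, 7.77). Over all genes, AD_B6 lay wholly below SJL_B6 for 1.91% and wholly above for 0.912%. Rac2, Prex1, Jak2 and Tiam1 thus had their lowest mean in AD_B6, the group that both contrasts share. Gng2 and Pik3cg had their highest mean there, 8.83 and 8.42, against 5.16 and 6.19 in AD_TG and 7.63 and 6.43 in SJL_B6. AD_B6 also had the lowest mean of all symbols with reads.

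Relatives of the chemokines whose symbols the rule does not cover included Pf4, the platelet and macrophage chemokine CXCL4. It had reads in every library and averaged 11.34 ± 0.91 in AD_TG, 10.88 ± 0.40 in AD_B6 and 10.78 ± 1.0 in SJL_B6 (SD, n = 4 each). Its libraries spanned 10.19 to 12.41 in AD_TG, 10.60 to 11.48 in AD_B6 and 9.35 to 11.68 in SJL_B6, with a difference of 0.46 for AD_TG against AD_B6 (SE 0.49, adjusted p = 0.913, limma). Ppbp, a second platelet chemokine, had reads in 3 libraries, and so had Ccrl2, an atypical receptor of chemerin.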

How the data were processed

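The authors deposited, for each library, a table of log2 values by gene symbol; these equal log2(x + 1) of scaled amounts; how they were scaled is not given in the sources used here. Per the labels' protocols, libraries were made from 500 ng of RNA with the Lexogen QuantSeq kit. The submitters' processing notes name Bowtie2, bedtools and hg19, without versions; hg19 is a human build while the symbols are those of the mouse, so no coordinates were taken from the files. Each table held 23282 entries; of 35 symbols with several, only the one of highest mean was used, which dropped 44. Low linear values fell at multiples of 0.698 to 1.752, read as the worth of 1 read, with 90.7 to 100% of them within 0.15 of a whole step, and the total over the step gave the depth.

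Groups and replicates came from the titles. limma 3.58.1 in R 4.3.3 (lmFit, eBayes with trend) was run on the log2 values of all 12 libraries, two-sided, without a replicate block, since the files hold no counts. It was tested on simulated data. The alternatives were filters, pseudocount, scaling, trend, the samples in the fit, a replicate block, the handling of repeated symbols and leaving out each library.

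Values in every library are given for tested members with reads in at least 9 libraries, for the 3 smallest p of each contrast, and for Ccl21a, Ccr7, Ackr4, Cxcl12, Cxcr4 and Ackr3; Ccl19, Cxcl3, Cxcl10 and Gnai2 were named after their values were seen. The values of 1 member, included in the counts, are not reported here. The members, the lists and these rules were chosen with earlier results of these data known. Exon overlaps and Ccl21 transcripts are from GENCODE M21, where 61 of the 62 symbols were found, and promoters from RefSeq.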

Additional observations from a re-analysis of the deposited data

Results flagged for a closer look

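Within the groups of 4 libraries, 76 sets of values of the named chemokine genes were screened with Dixon's criterion for a highest or lowest value far from the other 3, and 12 were marked, 1 in AD_TG, 6 in AD_B6 and 5 in SJL_B6. Chance alone marks about 1 in 20 sets of normally distributed values; many of these sets hold libraries without reads, so the count cannot be read against that rate. Values far below the rest of their group were Ackr1 at 0.07 in AD_TG replicate 1 and at 0.00 in AD_B6 replicate 3, Ccl6 at 6.03 in AD_B6 replicate 4, and Ccr1 at 0.03 in AD_B6 replicate 4. Values far above the rest in AD_B6 were Ccl9 at 8.61 and Cxcr4 at 1.41 in replicate 2, and Ccr7 at 7.07 in replicate 1. Those in SJL_B6 were Cxcr4 at 7.73 and Ccl7 at 8.23 in replicate 2, Cxcl1 at 6.45 in replicate 4, Ccr1 at 7.16 in replicate 3 and Ackr4 at 1.14 in replicate 1. In all of these except Ccl9 and Ccl6, either the marked library or the other 3 had no reads.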

How the results depend on the processing

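No gene was called by limma in any contrast under the filters, pseudocount, scalings, groups in the fit or omissions tried, except without the trend in the prior variance: 10 genes for AD_TG against AD_B6, 2 for AD_TG against SJL_B6 and 10 for AD_B6 against SJL_B6, with 0 chemokine genes in each. With the replicate number as a block, 0 genes were called in each contrast. The pairing check gave correlations of −0.015 to 0.067 for 12 same-numbered pairs and −0.07 to 0.062 for 36 others. No sign of pairing by number was seen, but with libraries this variable the check cannot exclude that same-numbered libraries were handled together. At a linear value of 10 or more, chemokine genes with reads averaged 25.50 in AD_TG, 21.2 in AD_B6 and 22.00 in SJL_B6, against 29.5, 25.5 and 29 at 0.3; SJL_B6 replicate 1 had 16 in place of 31.

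Of 35 differences followed, 25 kept their sign throughout. Centring libraries reversed Ccl6 in AD_B6 against SJL_B6 (0.42) and Ccr2 in AD_TG against SJL_B6 (−0.15). Quantile normalization reversed Ccl6 (0.01), Ccr2 (−0.02), Cxcr2 (−0.41) and Ccl27b (−0.08), the last 3 in AD_TG against SJL_B6. Leaving out single libraries reversed these, given as lowest to highest: in AD_TG against AD_B6, Ccl27a −0.57 to 0.21 and Ccl27b −0.93 to 0.01; in AD_TG against SJL_B6, Cxcr2 −0.32 to 0.74, Ccl8 −0.38 to 0.39, Ccl27a −0.59 to 0.29, Cx3cr1 −0.37 to 0.14 and Ccr2 −0.25 to 0.45; in AD_B6 against SJL_B6, Ccl6 −0.48 to 0.92 and Ccl27a −0.32 to 0.52. The cause was not tested. Depth limits genes near 1 read.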
